A study of Mus musculus with 2 samples.

Results

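The immediate early and MAPK feedback genes are a list of 42 genes, made of the transcription factors that cells switch on within minutes of a stimulus and the inhibitors that then shut the mitogen-activated protein kinase (MAPK) pathways down. They were listed by name and known function, with no cut on their values, but with earlier results of these data known. Of the 42 genes, 40 had a probeset of their own on the GeneChip Mouse Gene 2.0 ST array, among 22180 named genes, and 38 of these were above the background level, among 14069 genes. Egr2 and Nr4a3 were under background on both arrays, and Fosl1 and Gadd45a were only on probesets shared with another gene.

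The cells were subepithelial myofibroblasts, the contractile stromal cells under the gut epithelium, isolated from the small bowel of BALB/c mice without genetic change (wild type). The non-stimulated array holds RNA of cells kept without homogenate, and the stimulated array holds RNA of cells exposed for 1 day to homogenised eosinophils of the intestine, at 5 mg/ml. Both conditions used cells of the same strain, with no transgene or deletion named in the labels. Each condition was cultured in triplicate and the RNA was pooled, so that 1 array stands for 3 cultures and the spread between cultures cannot be seen.

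Immediate early genes need no new protein to be transcribed. Growth factors, cytokines and stress activate ERK, JNK and p38 kinases. These kinases act on factors already bound at these genes, such as CREB and SRF with its ternary complex partners. The products include the AP-1 and EGR transcription factors. A second set of products closes the loop: dual-specificity phosphatases remove the activating phosphates of the kinases, Sprouty and Spred proteins hold back signalling between growth factor receptors and RAF, and Zfp36 speeds the decay of short-lived messenger RNAs. In stromal cells these genes answer to wounding, serum and inflammatory cytokines, and most of them peak and fall again well within a day.

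The values are log2 values after RMA, the authors' normalization, which sets both arrays to 1 distribution. As background level served the 95th percentile of 1407 probesets for olfactory or vomeronasal receptors, genes of the sensory epithelium of the nose, and it lay at 5.58 on the non-stimulated and 5.57 on the stimulated array. All 10 fibroblast markers were above it, between 7.70 and 13.10 on the non-stimulated and between 7.45 and 13.16 on the stimulated array. A label field names eosinophils as the source of both samples, but of 7 eosinophil markers only Alox15 (5.68 and 5.87) and Cebpe (5.91 and 5.46) passed the background level on any array, and Epx and Prg2, which encode granule proteins, did not. Of the markers of leukocytes in general, macrophages, epithelium and endothelium, 3 of 5, 3 of 5, 2 of 5 and 3 of 5 passed it on at least 1 array. Those that did were led by Cd53 (9.73 and 9.56) among leukocyte, Cx3cr1 (6.57 and 6.81) and Cd68 (6.31 and 6.52) among macrophage, Krt8 (6.45 and 6.23) among epithelial and Egfl7 (6.24 and 6.33) among endothelial markers, while the defining genes Ptprc (4.16 and 3.95), Adgre1 (4.51 and 4.57) and Epcam (4.35 and 4.49) were under background on both arrays. Some markers differed between the arrays along with the members. Of the 3 macrophage markers above background, Cd68 and Cx3cr1 passed on both arrays and were higher on the stimulated array, by 0.21 and 0.23 in log2. Lyz2 (5.15 and 5.66) differed by 0.51 but passed on the stimulated array only, so the filter all but fixed its direction. The median of the 3 was 0.23. The 3 leukocyte markers and 2 epithelial markers above background were all lower, with medians of -0.10 and -0.21. Of the fibroblast markers, Pdgfra was 1.47-fold higher and Acta2, smooth muscle actin, 1.22-fold lower, and the median of the 10 was -0.01. The part of such cells in the results was not tested. Fewer cells of a type and less RNA per cell cannot be told apart in bulk RNA. With 1 array per condition there is no replicate check, no p-value is given, and every difference below describes these 2 pools; the number of arrays limits the precision.

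After 1 day with the homogenate, Ier3 and Map3k8 were well above their level without it, and 5 members were moderately lower. The other members with a probeset of their own differed by less than 1.2-fold. Ier3 was 1.83-fold and Map3k8 1.54-fold higher on the stimulated array. Gadd45g, Spry1, Dusp1, Nr4a1 and Dusp5 were lower, by 1.38-fold, 1.30-fold, 1.22-fold, 1.21-fold and 1.21-fold. No member reached 2-fold, where 0.192% of all genes were that much higher and 0.0426% that much lower. Log2 differences are given as stimulated minus non-stimulated, and their median over the 38 members was -0.04, against 0.00 for all genes above background.

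A 1.2-fold difference was used to count genes. Of the 38 members, 2 (5.26%) were at least 1.2-fold higher, where 6.11% of all genes were, and 5 (13.2%) at least 1.2-fold lower, where 6.91% of all genes were. The first share is near that of all genes and says nothing about the list. At 1.1-fold, 9 members were higher and 13 lower (23.7% and 34.2%), against 17.7% and 18.6% of all genes. At 1.5-fold, Ier3 and Map3k8 remained on the higher side, where 0.796% of all genes were, and no member on the lower side, where 0.64% were. Of all sizes of difference, 22 members were lower (57.9%, against 48.2% of all genes) and 16 higher (42.1%, against 50.2%). These shares of all genes are also those to read each later count of genes higher or lower by any size against. The members nearest the 1.2-fold line were Dusp5 (1.21-fold lower) and Nr4a1 just inside it, and Spry2 (log2 difference of -0.257, where the line is at 0.263) and Egr3 (1.17-fold higher) just outside it.

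The scatter of differences shrinks with the level of a gene, so each member was also set beside genes of like level. In the brightest of 4 equal sets of genes, the central 95% of differences lay between -0.25 and 0.29, and Ier3, Dusp1 and Spry1 were outside that range while the other 9 members of that set were inside. In the next set the range was -0.29 to 0.32, and Gadd45g alone of 16 members was outside. Map3k8 was the only one of 9 members outside the range of -0.39 to 0.36 in the set below, and Fosb, in the dimmest set, was inside. In all 5 of 38 members lay outside, against 5.0% of all genes by construction.

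**Figure D1:**
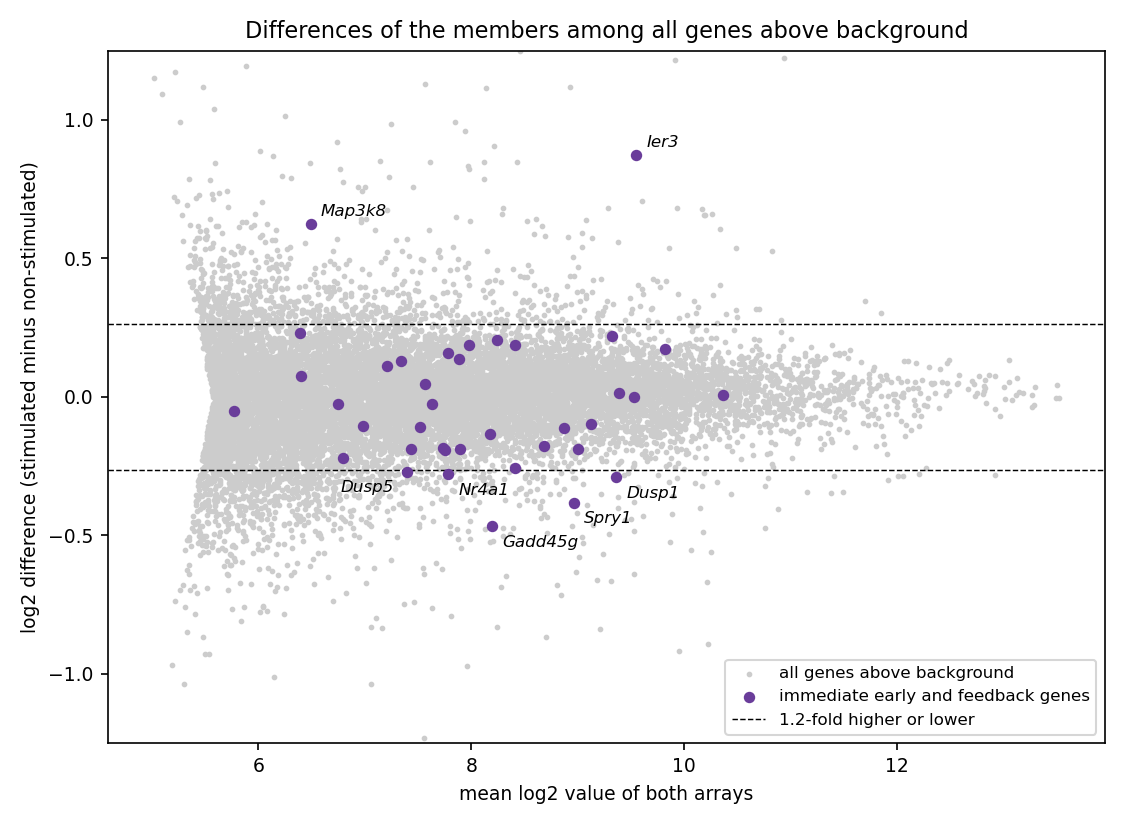
Log2 difference between the arrays (stimulated minus non-stimulated, vertical axis) against the mean log2 value of both arrays (horizontal axis), with grey points for the genes above background, purple points for the 38 members and dashed lines at 1.2-fold; 16 genes lie beyond the vertical axis and are not drawn. Ier3 at 0.87 and Map3k8 at 0.62 lie above the upper line, and 5 named members lie below the lower line.

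Ier3 encodes a small stress-induced protein that regulates cell survival, and its transcription is a known output of NF-kB. It read 9.11 on the non-stimulated and 9.99 on the stimulated array, a log2 difference of 0.87, and ranked 35 of 14069 genes from the top. Of the other immediate early response genes, Ier5, a nuclear partner of heat shock factor, read 7.85 and 7.66, and Ier2 read 6.76 and 6.73. Ier3 was thus high on the stimulated array, while Ier5 and Ier2 differed by -0.19 and -0.03.

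Map3k8 encodes the kinase (also called Tpl2) that links Toll-like, interleukin and tumour necrosis factor receptors to ERK and is held inactive by an NF-kB precursor. It read 6.18 and 6.80, a log2 difference of 0.62 at rank 93 of 14069 from the top. It was the only kinase of the list. Both values were above the background level of their array, but the gene lies among the dimmer genes, where differences scatter more.

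The promoters of 4 members are shown because, of the members in RefSeq's promoter table, these had the largest differences in each direction. Map3k8 and Egr3, which were further up than Fosl2, have no entry in that table, so their promoters were not searched for motifs. Each sequence is the 250 bases before the gene's start in GRCm38.p6, 5′ to 3′ on the gene's strand, which is the plus strand for all 4, and capitals mark the motifs searched. Ier3 (chr17:35821463-35821712) and Fosl2 (chr5:32136222-32136471) were the furthest up, and Gadd45g (chr13:51846425-51846674) and Spry1 (chr3:37639697-37639946) the furthest down.
Ier3: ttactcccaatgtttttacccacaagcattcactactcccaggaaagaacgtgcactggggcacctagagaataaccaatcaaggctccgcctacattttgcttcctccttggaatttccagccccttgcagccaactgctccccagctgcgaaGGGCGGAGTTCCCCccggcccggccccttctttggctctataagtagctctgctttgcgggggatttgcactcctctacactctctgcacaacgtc
Fosl2: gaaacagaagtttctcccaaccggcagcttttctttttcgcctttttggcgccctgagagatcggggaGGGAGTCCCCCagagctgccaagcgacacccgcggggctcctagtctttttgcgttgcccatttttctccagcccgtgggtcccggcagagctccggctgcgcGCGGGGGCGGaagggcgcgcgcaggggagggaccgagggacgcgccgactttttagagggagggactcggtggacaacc
Gadd45g: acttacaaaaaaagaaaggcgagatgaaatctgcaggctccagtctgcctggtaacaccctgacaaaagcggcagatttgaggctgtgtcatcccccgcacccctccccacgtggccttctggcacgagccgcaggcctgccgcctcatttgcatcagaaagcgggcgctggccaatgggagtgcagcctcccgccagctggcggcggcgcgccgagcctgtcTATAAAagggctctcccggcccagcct
Spry1: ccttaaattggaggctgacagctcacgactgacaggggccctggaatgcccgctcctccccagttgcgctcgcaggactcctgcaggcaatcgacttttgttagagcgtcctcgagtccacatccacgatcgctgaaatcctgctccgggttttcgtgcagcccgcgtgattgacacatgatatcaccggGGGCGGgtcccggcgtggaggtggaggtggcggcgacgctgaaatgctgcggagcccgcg
In Ier3 the capitals are a GC box (GGGCGG), from 96 to 91 bases before the start, that runs into an NF-kB site on the other strand, from 92 to 83 bases before it. Fosl2 holds 2 overlapping matches to the NF-kB site, 1 on each strand, between 182 and 172 bases before the start, and a GC box that overlaps an EGR site (GCGNGGGCG) between 79 and 70 bases before it. In Gadd45g the only match is a TATA box (TATAAA), from 27 to 22 bases before the start, and in Spry1 it is a GC box, from 60 to 55 bases before it. A match describes the letters and is not evidence that a factor binds there.

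Among the AP-1 genes, whose products pair as Fos and Jun proteins on DNA, and Maff, none of the 7 measured members reached 1.2-fold. Fosl1 is not among them, because its probeset, which read 7.95 and 8.36, is shared with Ccdc85b. Fosl2, a member of the Fos family, read 9.21 and 9.43, a log2 difference of 0.22. Junb, a partner that often tempers Jun, read 7.88 and 8.07, and Fos itself 7.16 and 7.27. These 3 were higher on the stimulated array, by 1.17-fold, 1.14-fold and 1.08-fold. Jun read 9.53 on both arrays, and Fosb (5.80 and 5.74) was close to the background level. Jund, the Jun protein that resting cells keep, read 9.18 and 9.08, and a second probeset of it read 6.86 and 6.76, so that both gave a difference of -0.10. Maff, a small Maf protein without an activation domain, read 6.90 and 6.68, and its difference of -0.22 was the lowest of the group.

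The zinc-finger factors of the EGR family went apart. Egr3 read 6.27 and 6.50 (1.17-fold higher) and Egr1, the classical serum-induced member, 7.03 and 6.93 (1.08-fold lower), while Egr2 was under background at 5.57 and 5.53. The NR4A genes, which encode orphan nuclear receptors, did likewise. Nr4a1 read 7.92 and 7.64, 1.21-fold lower, and Nr4a2 read 7.71 and 7.86, 1.11-fold higher, whereas Nr4a3 was under background at 5.52 and 5.37. In both families the members above background thus lay on opposite sides of 0, with gaps of 0.34 and 0.44 on the log2 scale. Each of them was inside the central 95% of differences of genes of like level, so the opposite signs say little about the families.

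Krüppel-like factors and Myc stayed inside 1.2-fold. Klf4, a regulator of smooth muscle and stem cell states, read 8.14 and 8.34, and its log2 difference of 0.21 was the highest of the group. Klf2, a factor that shear stress induces in endothelium, read 7.52 and 7.33, and Klf10, a gene that TGF-beta induces, 7.83 and 7.64. Both were lower, by 1.14-fold. Klf6 differed by 0.01, and Myc, which drives growth and ribosome synthesis, read 8.93 and 8.82. Of the 5 genes, 2 were higher and 3 lower.

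**Figure D2:**
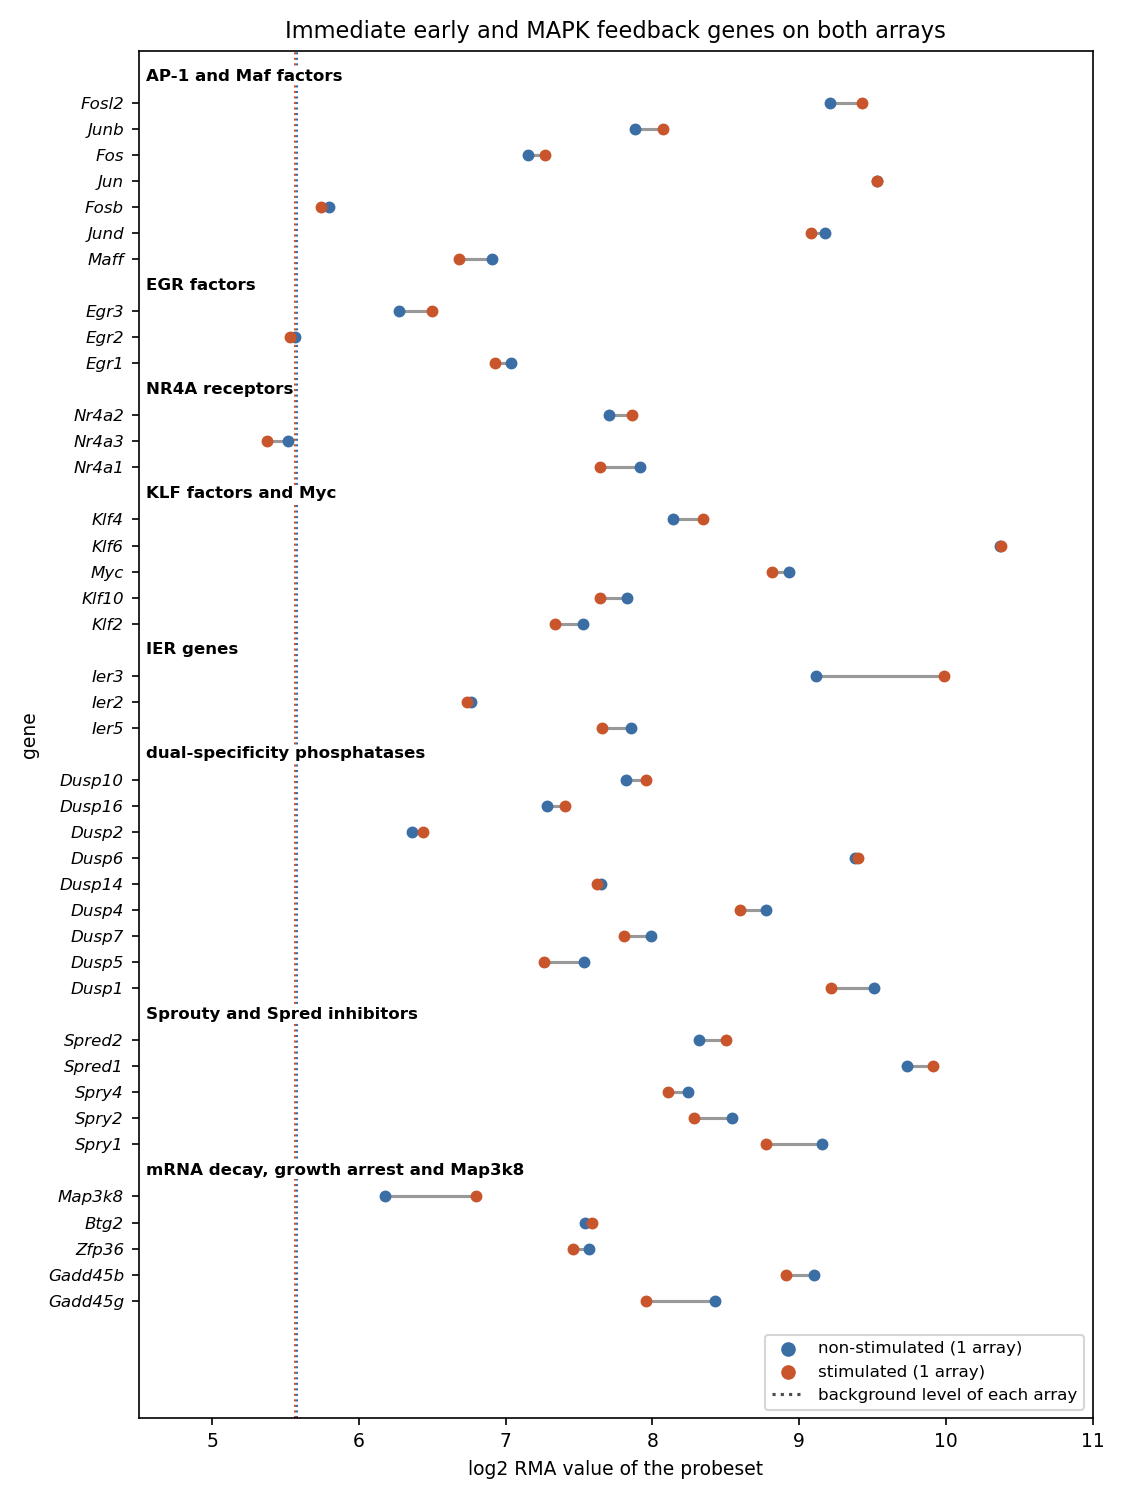
Log2 value of each of the 40 members with a probeset of its own (horizontal axis), by role group (vertical axis), with a blue point for the non-stimulated and an orange point for the stimulated array, joined by a line; dotted lines mark the background level of each array. The widest lines are those of Ier3 (9.11 to 9.99), Map3k8 (6.18 to 6.80) and Gadd45g (8.43 to 7.96), and most others are short.

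The dual-specificity phosphatases switch MAP kinases off by removing phosphate from both residues of their activation loop. All 9 were above background, 4 higher and 5 lower. Dusp1, a nuclear enzyme that acts on p38 and JNK as well as ERK, had the lowest difference of the 9, with 9.51 and 9.22, 1.22-fold lower. Dusp5, a nuclear phosphatase specific for ERK, read 7.53 and 7.26, 1.21-fold lower. Dusp7, a cytoplasmic ERK phosphatase, read 7.99 and 7.80, and Dusp4, another nuclear enzyme, 8.77 and 8.60, lower by 1.14-fold and 1.13-fold.

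Dusp6, the cytoplasmic ERK phosphatase often used as a readout of ERK activity, differed by 0.01, at 9.38 and 9.40. A second probeset of Dusp6 was under background on both arrays, at 4.37 and 4.19. Dusp10 and Dusp16, which act mainly on p38 and JNK, differed by 0.14 and 0.13. Dusp10 read 7.82 and 7.96, and Dusp16 read 7.28 and 7.41. Dusp2 differed by 0.08 and Dusp14 by -0.03. The differences of these 9 genes spanned 0.43 on the log2 scale, with a median of -0.03.

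The 3 listed Sprouty genes and the 2 listed Spred genes lay on different sides of 0. Spry1, Spry2 and Spry4, whose products restrain signalling from receptor tyrosine kinases to ERK, were all lower on the stimulated array. Spry1 read 9.15 and 8.77, a log2 difference of -0.38 at rank 382 of 14069 from the bottom. Spry2 read 8.54 and 8.28, a difference of -0.26, and Spry4 read 8.24 and 8.11, a difference of -0.14. Spred1 and Spred2, which bring neurofibromin to the membrane to switch Ras off, were both higher, Spred1 at 9.74 and 9.91 and Spred2 at 8.31 and 8.50. Their differences were 0.17 and 0.19, and of these 5 genes only Spry1 was past 1.2-fold. The direction did not hold for all Sprouty genes, since Spry3, a Sprouty gene outside the list, was higher, at 6.56 and 6.74, a difference of 0.19. Spred3, also outside the list, was higher like the listed Spred genes, at 8.03 and 8.11, a difference of 0.08. Of the 5 listed genes, only Spry1 was outside the central 95% of differences of genes of like level. The opposite signs of the listed Sprouty and Spred genes thus say little about the families.

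Of the growth arrest genes, Gadd45g read lowest against its own control. Gadd45 proteins are stress sensors that bind a kinase upstream of p38 and JNK and interact with cell cycle proteins. Gadd45g read 8.43 and 7.96, a log2 difference of -0.47 at rank 203 of 14069 from the bottom, and Gadd45b, a known NF-kB target, read 9.10 and 8.91, a difference of -0.19. Zfp36, the tristetraprolin gene, read 7.57 and 7.46, and Btg2, an antiproliferative partner of the deadenylase complex, 7.54 and 7.59. These last differed by -0.11 and 0.05.

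Genes around the members were read from lists of related genes. Of 39 genes of the MAP kinase cascade itself, 30 were on probesets of their own and above background. Of these, 22 were higher and 7 lower, all by little, and 1 was equal on both. Among all genes above background, 50.2% were higher and 48.2% lower by any size. Mapk13, a p38 isoform, was the only gene past 1.2-fold (1.21-fold higher, from 7.81 to 8.08). It was followed by the downstream kinase genes Rps6ka5 at 0.23 and Mapkapk3 at 0.13 and by the scaffold gene Ksr1 at -0.13. The median of the 30 was 0.04, against 0.00 for all genes.

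Upstream of the cascade, single ligands and receptors were higher. Ereg (epiregulin, a ligand of the EGF receptor) read 8.94 and 9.62, 1.60-fold higher, while Btc, Nrg1 and Hbegf differed by 0.21, 0.05 and -0.10 and the other 3 measured ligand genes were under background. The median of the 4 was 0.13, which turned to -0.018 when the genes under background were counted too. Of 10 growth factor receptor genes above background, 3 were past 1.2-fold, all higher: Pdgfra (9.10 and 9.66), Met (7.41 and 7.88), the receptor of hepatocyte growth factor, and Fgfr2 (5.96 and 6.41). The other 7 lay between -0.11 and 0.02, with Igf1r lowest, and the median of the 10 was -0.03. Fgfr2 was in the dimmest set of genes, and its difference of 0.45 was inside the central 95% of that set, -0.51 to 0.48. Among 14 transcription factors that act on immediate early genes, none was past 1.2-fold, 4 were higher, 9 lower and 1 equal, and the median was -0.04. Mef2d and Srf, the serum response factor, had the largest differences at -0.19 each, and Elk1 and Crtc1 differed by -0.11 and 0.11.

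Downstream, genes used as outputs of ERK went both ways, while inducible targets of NF-kB were mostly higher. Of 25 ERK output genes above background, 4 were higher by at least 1.2-fold and 5 lower by as much, with a median of -0.05. The shares of all genes past this fold, 6.11% higher and 6.91% lower, are those to read each count of related genes against. The matrix-associated growth factor Ccn2 was 1.47-fold lower, the kinase gene Sik1 1.33-fold lower and the ETS factor Etv4 1.30-fold lower, while Ets2, another ETS factor, was 1.30-fold higher. Of 18 NF-kB primary response genes above background, 13 were at least 1.2-fold higher and none lower by as much, with a median of 0.41. Cxcl1 (7.32-fold), Ccl2 (2.95-fold), Il6 (1.95-fold) and the inhibitor gene Nfkbia (1.80-fold) led them, and Pim1 and Tnfaip3, at -0.19 and -0.02, were the lower genes. The list was written with earlier results of these data known, and its high median is not independent evidence.

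Messenger RNAs that Zfp36 is known to destabilise were read beside Zfp36. Of 13 listed, 8 were above background, 5 of them at least 1.2-fold higher and none lower by as much, with a median of 0.59. Cxcl1, Ccl2, Il6 and Ier3 led them. The list shares 5 genes with the NF-kB list and holds Ier3. The 3 genes above background that were in neither, Lif, Plaur and Vegfa, differed by -0.04 to -0.02. Of relatives of the members outside the list, 27 of 33 were above background, 1 higher by at least 1.2-fold and 2 lower by as much, with a median of -0.02. The first was Zfp36l1 (9.42 and 9.75), a paralogue of Zfp36. The others were the phosphatase gene Dusp15 (6.34 and 5.88) and the AP-1 family gene Batf (6.12 and 5.74). Dusp15 and Batf were in the dimmest set of genes and inside its central 95% of differences, -0.51 to 0.48. The Spry3 difference was next in size.

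**Figure D3:**
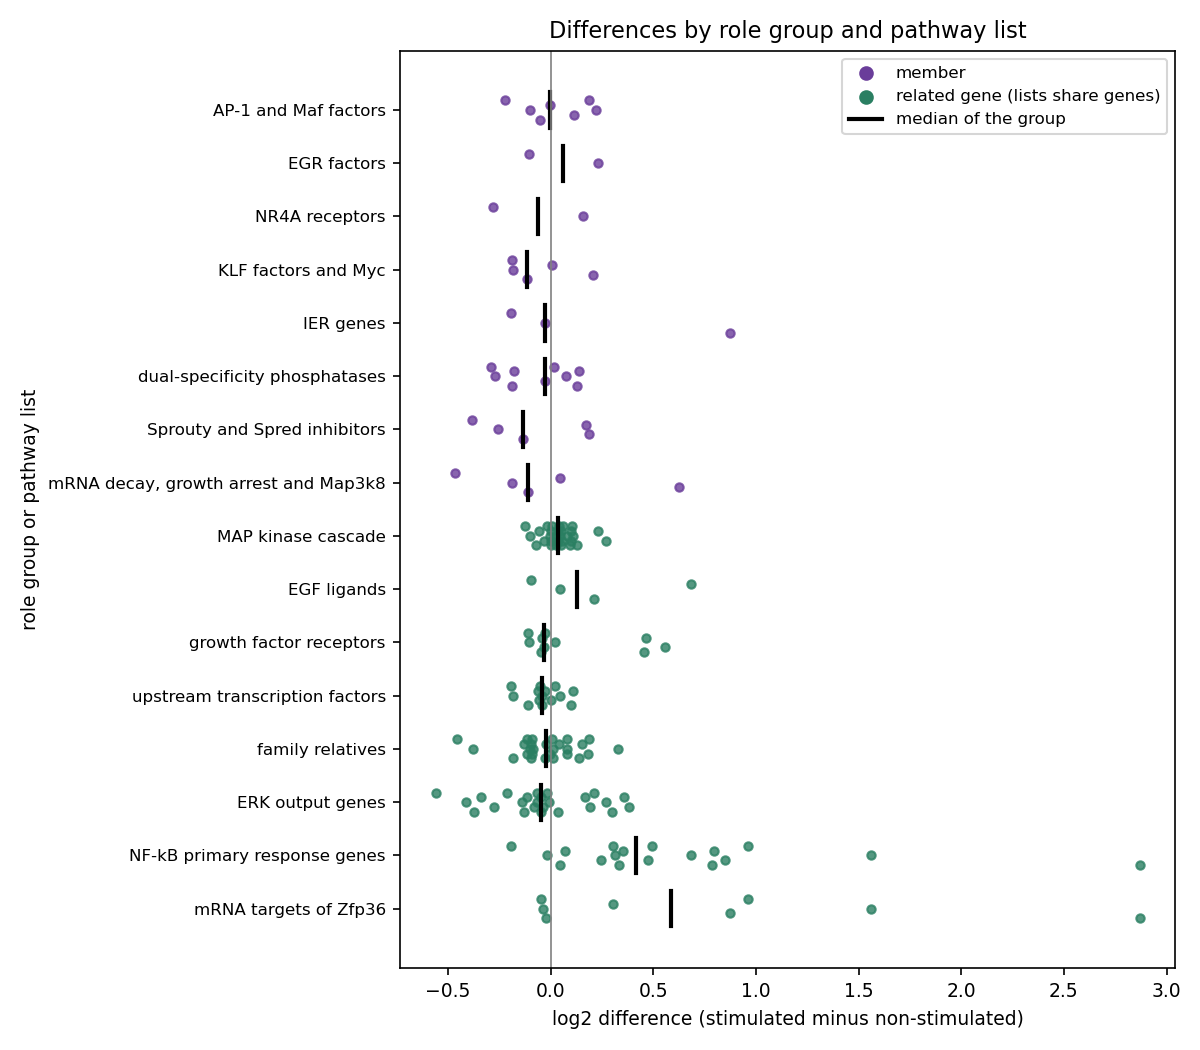
Log2 difference of each gene above background (horizontal axis) by role group of the members (purple) and by list of related genes (green), with a black bar at each median; lists share genes, and Ier3 is drawn in its role group and among the Zfp36 targets. The NF-kB primary response genes have their median at 0.41 and the role groups theirs between -0.14 and 0.06.

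Apart from their differences, the members share short genes and promoters rich in G and C. The median span of the 38 members was 5159 bases in RefSeq's GRCm38.p6 annotation, against 20747 bases for 14048 genes above background with an entry. Of the 38, 30 were shorter than that median, from Ier3 at 1199 bases up to Spred2, the longest, at 99585 bases. The promoter table matched 33 of the 42 members by symbol, with 39 promoters, of which Egr2 has 5 and Maff 3. Map3k8 and Egr3 are among the members without a match. The median G+C content of the 250 bases before the start was 64.0% in these promoters and 52.4% in all 32851.

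Motifs were searched in the same 250 bases on both strands, except the TATA box (TATAAA), which was searched on the gene's strand. The members are set against all 32851 promoters, whether or not their gene was above background. A GC box (GGGCGG) was in 29 of 39 member promoters (74.4%), against 32.7% of all promoters, and an EGR site (GCGNGGGCG) in 12 (30.8%), against 4.70%. Both motifs are made almost only of G and C, and the part of the higher G+C content of the member promoters (64.0% against 52.4%) was not tested. Both motifs were in the same promoter in 12 cases and overlapped in 9. The CArG box, which SRF binds, was in 6 promoters (15.4%, against 1.47%), but these belong to 3 genes, Egr2, Dusp5 and Zfp36. An NF-kB site was in 5 promoters (12.8%, against 3.90%), those of Ier3, Fosl2, Fos, Fosb and Maff. These 5 genes differed by 0.87, 0.22, 0.11, -0.05 and -0.22 between the arrays, and so lay on both sides of 0. The cAMP response element (TGACGTCA) was in 3 promoters (7.69%, against 1.55%), those of Dusp1, Btg2 and Maff. The TATA box was in 3 (7.69%, against 7.59%), those of Fos, Gadd45b and Gadd45g, and the AP-1 site (TGACTCA) in none, against 4.46% of all.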

How the data were processed

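Total RNA of pooled triplicate cultures was amplified, labelled with biotin and hybridised to 1 array per condition, per the labels' protocols. The deposited values are log2 values, 1 per probeset and array, made by the authors with Affymetrix Expression Console and RMA, per the submitters' processing notes. Tool versions and the genome build were not given in the sources used here. The RMA step sets both arrays to 1 distribution, so an overall shift between them cannot be seen; their sorted values differed by at most 0.0757.

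Of 41345 probesets, 23521 were paired with 1 gene by the platform annotation, 1814 with several and 16010 with none, and only the first were used. Of these, 23328 took their symbol from RefSeq's GRCm38.p6 table. The probeset with the highest mean stood for a gene, and a gene was above background when it passed the receptor level on at least 1 array. Differences are stimulated minus non-stimulated, and a fold is 2 raised to the size of the difference. No test between conditions is possible. The members and lists were chosen with earlier results of these data known. Named genes were all members, and up to 4 genes of the largest difference in each related list. Outside this rule, Lif, Plaur, Vegfa, Pim1, Tnfaip3, Spred3, the TATA box and the Spry1 promoter were chosen after the values were seen. The counting was tested on simulated data. Alternatives were the background level, the choice of probeset, the scaling, values raised to the background level and the fold threshold. Python 3.11.15, pandas 2.3.3 and statsmodels 0.14.6 were used.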

Additional observations from a re-analysis of the deposited data

Results flagged for a closer look

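A probeset that the annotation pairs with both Fosl1, a Fos family gene of the list, and Ccdc85b was left out of every comparison, and it read higher on the stimulated array. It measured 7.95 and 8.36, a log2 difference of 0.40, and its signal cannot be assigned to either gene. The probeset shared by Gadd45a and E230016M11Rik measured 9.97 and 10.02, a difference of 0.06.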

How the results depend on the processing

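Of 119 recomputed counts and medians, 113 stayed within 1.5 times the count or within 0.1 on the log2 scale of the median. Of the others, the counts of members at least 1.1-fold higher and lower were 9 and 13, and 0 were at least 1.5-fold lower. With no background filter the median of the EGF ligands turned from 0.13 to -0.018 and that of the Zfp36 targets moved from 0.59 to 0.12, because genes under background entered. With the background at the 99th percentile the EGR median was -0.11, from Egr1 alone. Many of the 113 had little or no room to move. Raising values to the background level left each count and median as it was, and centring shifted each gene by -0.00161. The median over members above background on both arrays could not move, because all 38 passed on both. All 152 recomputed differences of single members moved by less than 0.1, at most by 0.0955 on the log2 scale. Most of these had little or no room to move. All 38 members passed background on both arrays, only 2 had a second probeset, and centring moved all genes alike, by -0.00161. Only the removal of the trend with level, and the mean of both probesets for Dusp6 and Jund, could move members by different amounts. No paired analysis was possible because each condition has 1 array. Dim genes, such as Fosb near the background level, have the least certain differences.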
